A study of Mus musculus with 6 samples.

Results

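The genes described here encode Polycomb proteins and DNA methyltransferases: Ezh2, Eed, Suz12, Jarid2, Rnf2, Bmi1, Dnmt1, Dnmt3a, Dnmt3b and Dnmt3l. They are 10 of the 17002 genes named in the annotation of a mouse promoter array, and were found by taking every genomic probe whose gene name, or whose entry for a neighbouring start site, named one of them. Jarid2 was also sought under its older name Jmj. This gave 295 of 474380 probes. Of the 31 probes of Dnmt3l, 19 lie in a divergent promoter and are also annotated to Aire, a transcriptional regulator of the thymus, so those values belong to both genes.

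DNA recovered by chromatin immunoprecipitation (IP) with an antibody against SMAD1/5, SMAD2 or SMAD4 was hybridised against whole cell extract DNA, the input, from the same preparation. All groups were undifferentiated R1 cells, an established mouse embryonic stem cell line, with no genetic change stated in the labels, grown without feeders in knockout serum replacement with leukemia inhibitory factor, and no ligand was added. Each antibody had 1 biological replicate, spread over array 1 and array 2, which carry different probes, so nothing below has a replicate check and no test was made. The protocol text of the SMAD2 samples names an anti-Smad1/5 antibody, whereas their titles, sample type and the series' design name SMAD2, and the titles are followed here. The arrays measure DNA, so the identity of the cells could not be checked against expression of markers.

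Polycomb repressive complex PRC2 places methyl groups on histone H3 and PRC1 places ubiquitin on histone H2A, and in embryonic stem cells both hold developmental genes silent. DNA methyltransferases add methyl groups to cytosine, mostly at CpG sites. SMAD1/5 carry BMP signals and SMAD2 carries Activin and Nodal signals to the nucleus, where both bind DNA with SMAD4.

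The log2 ratio of IP over input was centred on the median of each array and averaged over the probes within 500 bp of each probe, with at least 3 probes. The window z is the distance of that mean from the median window, in robust SDs of the windows below the median. A gene was called enriched where a window had a z of 4 or more and 2 or more of its probes were past percentile 95 of the array, and low by the same rule turned over. Errors are SDs over the probes of 1 array, and distances are from the annotated start site, negative upstream.

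None of the 10 genes was enriched with any antibody, and none was low. With SMAD1/5, 0 of 10 were enriched against 0% of 16689 genes, and 0 of 10 were low against 2.55%. With SMAD2, 0 of 10 were enriched against 0.0659% of 16686 genes, and 0 of 10 were low against 0.33%. With SMAD4, 0 of 10 were enriched against 2.44% of 16689 genes, and 0 of 10 were low against 0.0479%. At these background shares a count of 0 in 10 genes does not set them apart from other genes.

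The height that a window had to reach differed between the antibodies. It was 24.4-fold and 18.0-fold over the array median on the SMAD1/5 arrays, 4.90-fold and 4.68-fold on the SMAD2 arrays, and 4.94-fold and 4.89-fold on the SMAD4 arrays. Input lay well above background at 72.3% and 87.0% of probes on the SMAD1/5 arrays, at 88.5% and 86.1% on the SMAD2 arrays and at 99.6% and 99.7% on the SMAD4 arrays. Enrichment smaller than these heights was not detectable by the rule, and most plainly so with SMAD1/5. The SMAD4 scans were extracted with another software version and protocol, so extraction and antibody cannot be told apart there.

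The highest window z of the 10 genes had a median of 1.31 with SMAD1/5, against 1.26 over all genes. With SMAD2 the median was 1.22 for the 10 genes and 1.34 for all genes. With SMAD4 it was 1.45 for the 10 genes and 1.72 for all genes. A milder mark, a highest z of at least 2, was reached by 0 of the 10 genes with SMAD1/5 against 5.82% of all genes, by 1 with SMAD2 against 18.2%, and by 4 with SMAD4 against 39.4%. A lowest z of -2 or below was reached by 2 of the 10 with SMAD1/5 against 31.8% of all genes, by 4 with SMAD2 against 29.8%, and by 2 with SMAD4 against 18.1%. The 4 genes with SMAD2 were Ezh2, Eed, Suz12 and Rnf2, and these counts at a z of 2 or -2 are near the background shares for 10 genes. Within the lowest SMAD2 z values of all genes, these 4 lay at percentiles 3.63, 0.515, 6.37 and 9.12. The other genes lay between percentile 36.6 (Dnmt1) and percentile 86.0 (Dnmt3b).

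**Figure D1:**
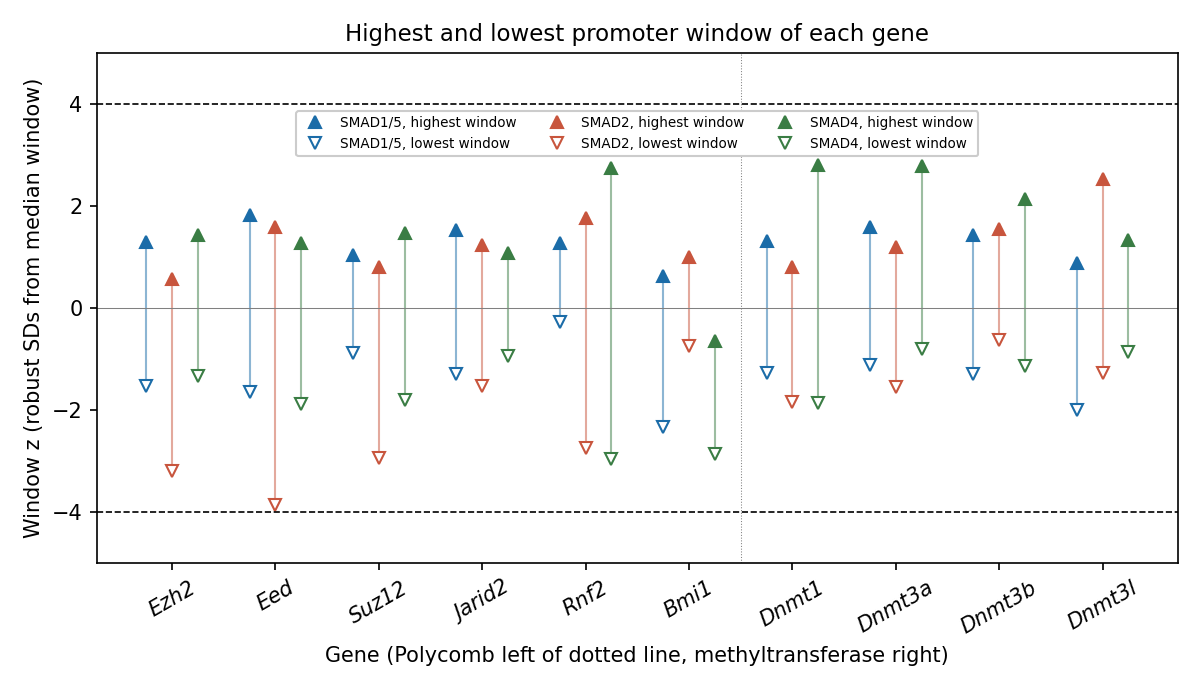
Window z of the highest window (filled triangles) and the lowest window (open triangles) of each of the 10 genes, in robust SDs, for the 3 antibodies, with dashed lines at the call heights of 4 and -4. No triangle passed either line, the nearest being the lowest SMAD2 window of Eed at -3.86 and the highest SMAD4 window of Dnmt1 at 2.81.

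Ezh2, the histone H3 methyltransferase of PRC2, was represented by 39 probes at chr6:47629126-47636814 (genome build not given in the sources used here), from -5073 to 2561 bp of its start site. Its highest window had a z of 1.31 with SMAD1/5, 0.56 with SMAD2 and 1.43 with SMAD4. Its lowest SMAD2 window, centred at -770 bp, averaged -1.77 ± 1.05 over 5 probes, a z of -3.19. The SMAD2 log2 ratios of those probes were -1.20, -2.83, -2.34, -0.23 and -2.26, so 4 of the 5 lay below -1. In the same window SMAD1/5 averaged 0.99 and SMAD4 averaged -0.19, so the antibodies did not share the low value. The SMAD2 IP was 0.64 lower and the SMAD2 input 1.05 higher there than the mean of the other antibodies' arrays on the log2 scale. With the authors' deposited values the lowest SMAD2 z of Ezh2 was -4.81, and Ezh2 was called low.

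Eed, the PRC2 subunit that binds methylated histone H3, had 33 probes at chr7:85927064-85934590. Its highest z was 1.83 with SMAD1/5, 1.60 with SMAD2 and 1.27 with SMAD4. The lowest window by z among the 10 genes was the SMAD2 window of Eed centred at -1612 bp, chr7:85930712-85931047, with a mean of -2.15 ± 1.11 over 3 probes and a z of -3.86. In that window the 3 SMAD2 log2 ratios were -2.41, -3.11 and -0.93, and the 3 SMAD4 ratios were 1.26, 0.94 and 0.14. All SMAD2 probes lay below all SMAD4 probes. The same window was thus the lowest of Eed for SMAD2 and the highest of Eed for SMAD4, where it averaged 0.78 with a z of 1.27, while SMAD1/5 averaged -0.86. The SMAD2 IP there was 0.50 higher and the SMAD2 input 2.13 higher than with the other antibodies, and the SMAD4 IP was 0.36 lower and the SMAD4 input 2.83 lower. Another window of Eed, centred at -2351 bp, was its lowest for SMAD1/5, at -2.17 ± 2.39, and its highest for SMAD2, at 0.93 ± 0.78, and there the SMAD1/5 IP was 2.40 higher and the SMAD1/5 input 5.55 higher than with the other antibodies. The SMAD2 IP of 1 of the 3 probes at -1612 bp was not well above background. With dim probes left out that window therefore held fewer than 3 probes and had no z. The lowest SMAD2 z of Eed was then -1.22, from another window. Eed was called low with the authors' deposited values (z of -4.17), with loess (z of -4.11) and with the low side scaled by the windows above the median.

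Suz12, the scaffold subunit of PRC2, had 30 probes at chr11:80070252-80077204 and highest z values of 1.05 with SMAD1/5, 0.81 with SMAD2 and 1.47 with SMAD4. The window at the end of its tiled region, centred 2494 bp downstream, was its lowest for both SMAD2 and SMAD4. It averaged -1.57 ± 0.87 with SMAD2 and -0.93 ± 0.38 with SMAD4 over 4 probes, and 0.77 with SMAD1/5. With SMAD2, 0 of the 30 probes of Suz12 reached 2-fold over the array median and 10 lay at -1 or below, against 12.7% and 13.5% of all SMAD2 probes. The share at -1 or below was 33.3% for Suz12, 28.2% for Ezh2, 27.6% for Dnmt1 and 22.2% for Rnf2. In the other genes it ran from 3.57% for Dnmt3b to 18.2% for Eed. Jarid2, which joins PRC2 in embryonic stem cells, had 34 probes at chr13:44175530-44183308 and highest z values of 1.54 with SMAD1/5, 1.24 with SMAD2 and 1.08 with SMAD4. Its lowest z was -1.29 with SMAD1/5, -1.52 with SMAD2 and -0.93 with SMAD4.

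Rnf2, the ubiquitin ligase of PRC1 also known as RING1B, had 27 probes at chr1:151431494-151439167. Its highest window with SMAD4 and with SMAD2 was the same, centred at -5222 bp, at the edge of the tiled region, chr1:151438730-151439167. It averaged 1.34 with SMAD1/5, 1.03 ± 0.46 with SMAD2 and 1.60 ± 0.63 with SMAD4 over 3 probes, with z values of 1.27, 1.76 and 2.74. All 9 probe ratios in that window were above 0, between 0.39 and 2.30. The 3 antibodies thus shared the sign in this window, which was picked out after its values were seen. The SMAD4 IP was 0.58 lower and the SMAD4 input 1.17 lower there than on the other arrays. Over the 10 alternatives named below the highest SMAD4 z of Rnf2 ran from 1.52, with the mean input of the 3 antibodies, to 2.75. The z is scaled anew in each alternative, and the median over all genes was 1.27 with the mean input. The percentile of Rnf2 among all genes ran from 66.0 to 84.4. The lowest SMAD4 window of Rnf2, centred 1046 bp downstream, averaged -1.57 ± 0.46 with SMAD4, with a z of -2.95 and all 4 probes below -1, and -1.47 with SMAD2, with a z of -2.65, against -0.18 with SMAD1/5.

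Bmi1, another PRC1 subunit, had 13 probes at chr2:18741465-18745052, of which 12 lie inside the gene and 3 within 1000 bp of its start. Its highest z was 0.64 with SMAD1/5, 1.01 with SMAD2 and -0.64 with SMAD4, the lowest of the 10 genes for SMAD1/5 and SMAD4. Bmi1 had 12 windows with SMAD1/5 and with SMAD4 and 11 with SMAD2, against a median of 25 over all genes. Its highest z is thus taken over fewer windows, and the part of this in its rank was not tested. The window centred 2847 bp downstream was its highest for SMAD2, at 0.60 ± 0.76, and its lowest for SMAD4, at -1.53 ± 0.16 with a z of -2.87. The SMAD4 ratios of the 3 probes were -1.71, -1.42 and -1.44, against SMAD2 ratios of -0.21, 1.28 and 0.72. The SMAD4 IP was 0.35 higher and the SMAD4 input 1.75 higher in that window than with the other antibodies. Its lowest SMAD1/5 window, centred 1555 bp downstream, averaged -2.98 ± 2.92 over 4 probes, an SD about as large as the mean.

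Dnmt1, the methyltransferase that copies methylation after replication, had 29 probes at chr9:20826985-20834935. Its highest z was 1.32 with SMAD1/5, 0.80 with SMAD2 and 2.81 with SMAD4, the highest value of any of these genes with any antibody. The SMAD4 window, chr9:20832222-20832846, was centred at -3210 bp and averaged 1.64 ± 0.99 over 3 probes, with single ratios of 2.44, 1.95 and 0.53. In the same window SMAD1/5 averaged -1.26 and SMAD2 averaged -0.84. The SMAD4 IP was 1.33 lower than with the other antibodies and the SMAD4 input 4.20 lower, so the IP itself was not raised. At the probe with the ratio of 2.44 the SMAD4 IP was -1.50 and the SMAD4 input -3.83 relative to the array median, whereas the SMAD1/5 IP was 1.75 and the SMAD1/5 input 5.72. Over the same 10 alternatives the highest SMAD4 z of Dnmt1 ran from 0.96 to 2.82, and its percentile among all genes from 25.0 to 88.6. The value of 0.96 came with windows of 250 bp. There the window at -3210 bp held fewer than 3 probes, so 0.96 belongs to another window. The window at -118 bp was the highest of Dnmt1 for SMAD2, at 0.48 ± 0.68, and the lowest for SMAD4, at -0.97 ± 0.32.

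Dnmt3a and Dnmt3b, which set new methylation, both had a highest SMAD4 z above 2. Dnmt3a had 31 probes at chr12:3749096-3756129, and its highest z was 1.58 with SMAD1/5, 1.19 with SMAD2 and 2.78 with SMAD4. The SMAD4 window was centred 2463 bp downstream, chr12:3755602-3756129, and averaged 1.61 ± 0.89 over 3 probes with ratios of 0.61, 2.31 and 1.92. It was the highest window for SMAD2 as well, at 0.69 ± 1.18, and the lowest for SMAD1/5, at -1.27 ± 0.93. Here the SMAD4 IP was 0.81 higher than with the other antibodies and the SMAD4 input 1.18 lower. Over the same 10 alternatives the highest SMAD4 z of Dnmt3a ran from 1.41, with the mean input of the 3 antibodies, to 3.02. Its percentile among all genes ran from 52.2 to 96.4.

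Dnmt3b had 28 probes at chr2:153385940-153392854, with a highest z of 1.43 with SMAD1/5, 1.55 with SMAD2 and 2.13 with SMAD4. Its highest SMAD1/5 and SMAD4 windows were the same, centred at -3713 bp, at 1.53 ± 0.57 with SMAD1/5 and 1.26 ± 0.94 with SMAD4 over 4 probes, where SMAD2 averaged 0.37. The window centred 72 bp from its start site was its lowest with SMAD1/5, at -1.74 ± 0.73 over 6 probes, where the SMAD1/5 IP was 0.05 higher and the SMAD1/5 input 2.60 higher than with the other antibodies.

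Dnmt3l, a relative without catalytic activity that stimulates Dnmt3a and Dnmt3b, had 31 probes at chr10:77698291-77707104. Its highest z was 0.88 with SMAD1/5, 2.53 with SMAD2 and 1.33 with SMAD4. It was the gene with a SMAD2 z above 2, at percentile 94.4 among the highest SMAD2 z values of all genes. Its highest SMAD2 window was picked from 27 in this gene, and the gene was the highest of the 10 with SMAD2. Both ranks are therefore of a picked maximum. Of the single SMAD2 windows of both arrays, 99.6% lay lower than that window. That window lies inside the gene, centred 871 bp downstream at chr10:77704954-77705733, and none of its probes is shared with Aire. The 5 SMAD2 ratios were 2.39, 1.87, 1.42, 1.06 and 0.36, a mean of 1.42 ± 0.77, against a SMAD1/5 mean of -0.04 and a SMAD4 mean of 0.54. The highest SMAD4 window, centred 695 bp downstream at 0.81 ± 0.74, overlapped it. The SMAD2 IP was 0.75 higher there and the SMAD2 input 0.76 lower than with the other antibodies, so both channels moved. Over the same 10 alternatives the highest SMAD2 z of Dnmt3l ran from 1.18 to 2.90, and its percentile among all genes from 46.6 to 98.4. The lowest value came with normexp background correction, which models signal and background together.

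**Figure D2:**
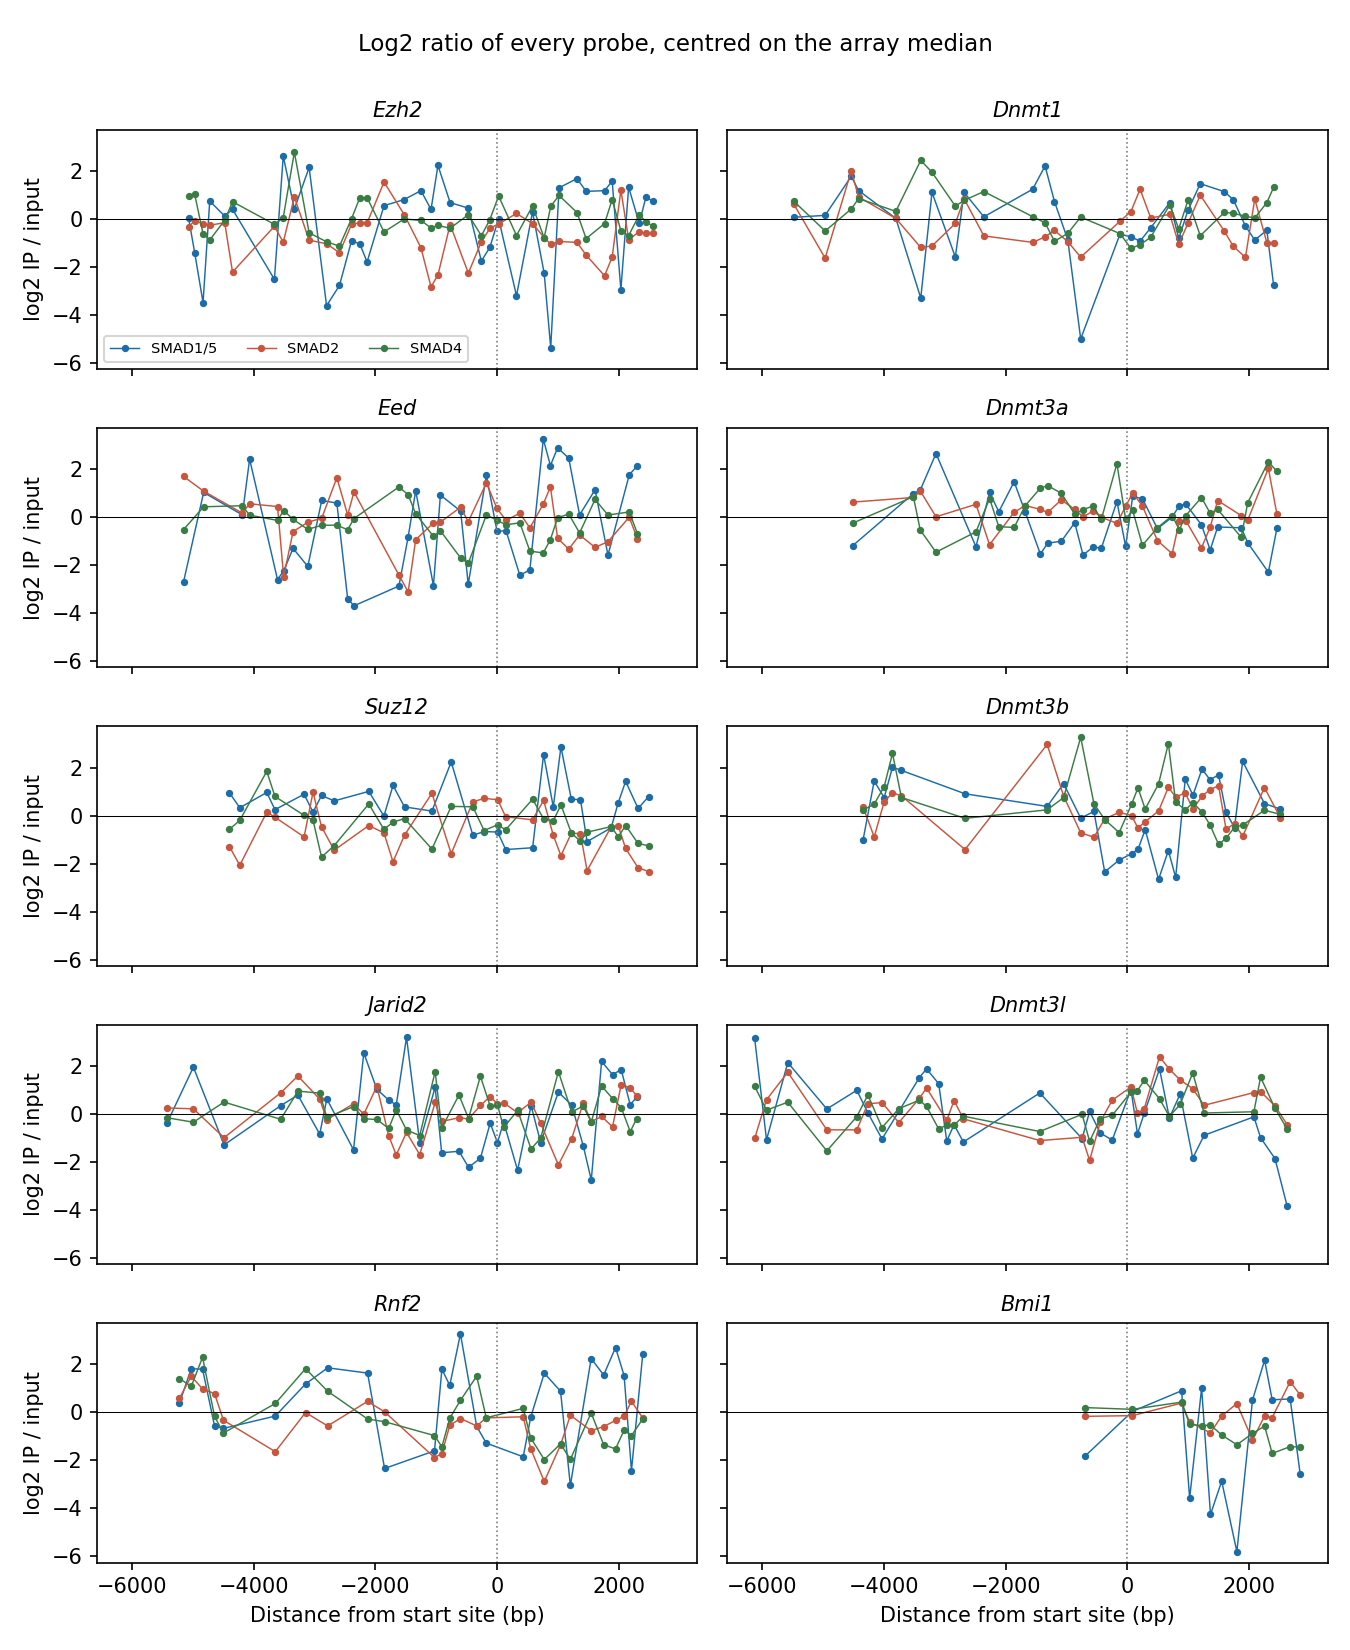
Log2 ratio of IP over input, centred on the array median, for every probe of the 10 genes against the distance from the annotated start site in bp, with 1 line for each antibody and outlier spots left out. The SMAD1/5 ratios reached from -5.81 to 3.27, the SMAD2 ratios from -3.11 to 2.97 and the SMAD4 ratios from -1.97 to 3.27, and high and low probes alternate along most genes.

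Single probes gave the same picture. With SMAD1/5, 79 of 295 probes of these genes, or 26.8%, reached 2-fold over the array median, against 27.5% of all probes. With SMAD2 it was 31 of 292, or 10.6%, against 12.7%, after 3 outlier spots were left out. With SMAD4 it was 33 of 295, or 11.2%, against 16.5%. At -1 or below on the log2 scale lay 28.8% of the SMAD1/5, 18.2% of the SMAD2 and 10.5% of the SMAD4 probes of these genes, against 31%, 13.5% and 10.1% of all probes. Among the genes, Rnf2 had the largest share of SMAD1/5 probes at 2-fold, 14 of 27 or 51.9%, whereas 1 of its 27 SMAD2 probes and 5 of its 27 SMAD4 probes reached that level.

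Within 1000 bp of the start sites the median ratio of the genes stayed near that of other genes. Their promoter means had a median of -0.26 with SMAD1/5 against -0.31 over 16258 genes, 0.01 with SMAD2 against 0.05 over 16239 genes, and -0.06 with SMAD4 against 0.0026 over 16258 genes. In the same order, the median input of the genes was 1.26, 0.86 and 0.70, against 0.88, 0.27 and 0.37 over all genes. It lay above the median gene in 7, 7 and 8 of the 10. Their median IP was 0.34, 0.63 and 0.33, against 0.12, 0.43 and 0.29, and lay above the median gene in 6, 7 and 5. With SMAD4 the highest mean was that of Dnmt3b, 0.90 ± 1.24 over 11 probes, at percentile 96.1 of genes. It rested on uneven probes, of which the ratios of 3.27 at -764 bp and 3.01 at 678 bp were the highest, while 2 probes were below 0. The SMAD4 IP of the Dnmt3b promoter lay at percentile 41.0 of genes and its SMAD4 input at percentile 15.6. With SMAD4 the lowest mean was that of Eed, -0.78 ± 0.74 over 11 probes, at percentile 2.87.

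With SMAD2 the lowest promoter means were those of Rnf2, -0.98 ± 0.97 over 8 probes at percentile 1.31 of genes, and Ezh2, -0.82 ± 0.87 over 10 probes at percentile 2.64. The SMAD2 IP of these promoters lay at percentiles 48.6 and 59.7 and the SMAD2 input at percentiles 92.4 and 93.4. Dnmt3l had the highest SMAD2 mean, 0.44 ± 1.32 over 10 probes. With SMAD1/5 the means ran from -1.23 ± 0.87 for Jarid2 to 0.49 ± 1.75 for Rnf2. Of the 30 means, 26 lay within 1 SD over probes of the median gene, and the 4 others were Jarid2 with SMAD1/5, Rnf2 with SMAD2, and Eed and Bmi1 with SMAD4. That SD is the scatter of single probes, not the spread of promoter means over genes. By it Ezh2 with SMAD2 (percentile 2.64) and Dnmt3b with SMAD4 (percentile 96.1) were within. Bmi1 with SMAD4, a mean of 0.25 over 3 probes at percentile 71.1, was outside.

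**Figure D3:**
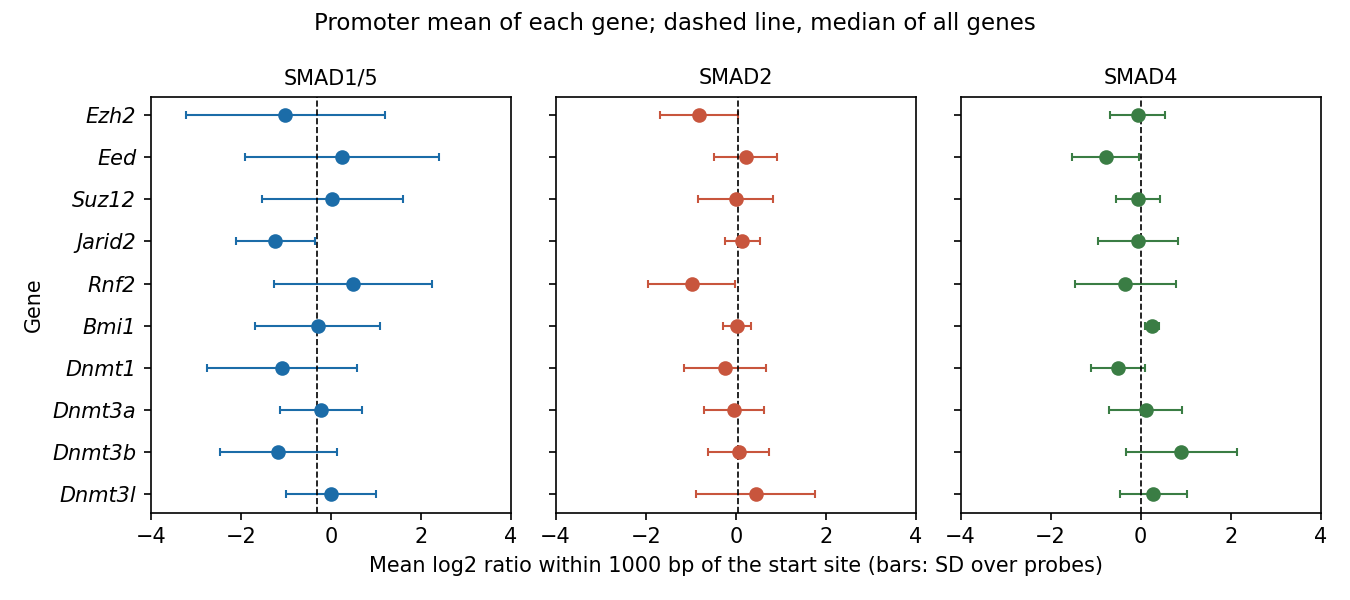
Mean log2 ratio within 1000 bp of the start site for each of the 10 genes, in a panel for each antibody, with bars for the SD over probes of 1 array and a dashed line at the median of all genes. Most bars cross the dashed line, and Dnmt3b with SMAD4 (0.90) and Rnf2 with SMAD2 (-0.98) lie farthest from it on those antibodies' panels.

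By distance, the largest gap between these genes and all genes with SMAD2 was between -1000 and -250 bp. There the mean of the 10 genes was -0.57 ± 0.56 (SD over genes), against 0.01 over all probes. In the same interval the SMAD1/5 mean of the genes was -0.70 ± 1.30 against -0.21, and the SMAD4 mean was 0.01 ± 0.68 against 0.03. Within 250 bp of the start sites the SMAD2 mean of the genes was 0.22 ± 0.37 against 0.03 over all probes.

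The separate channels were more alike between antibodies than the ratios were. Over the 295 probes of these genes, which share DNA source and probe composition, the IP channels of SMAD1/5 and SMAD2 correlated at r = 0.57, those of SMAD1/5 and SMAD4 at 0.64 and those of SMAD2 and SMAD4 at 0.80. The input channels correlated at 0.49, 0.44 and 0.56 for the same pairs. The ratios correlated at -0.01, 0.03 and 0.15, over 292 probes for the pairs with SMAD2. Over all probes of array 1 the IP channels correlated at 0.60, 0.64 and 0.80 for the same pairs. The input channels there correlated at 0.46, 0.40 and 0.54, and the ratios at 0.04, 0.04 and 0.06. The pattern was thus not particular to these genes. Each ratio ran against its own input, with r of -0.62 for SMAD1/5, -0.37 for SMAD2 (292 probes) and -0.49 for SMAD4. Over all probes of array 1 these values were -0.60, -0.43 and -0.51. A ratio shares its input with the measure it is set against.

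In the windows that set the highest z, each channel was set beside the same channel of the other antibodies. With SMAD4 the IP lay at least 1 above the other antibodies' IPs, on the log2 scale, in 1 of the 10 highest windows, that of Dnmt3l, while the input lay at least 1 below the others in 6. With SMAD2 the IP was raised that far in 1 window and the input lowered in 3, and with SMAD1/5 the IP was raised in 4 and the input lowered in 2. In the lowest SMAD1/5 windows the IP lay at least 1 below the others in 2 of 10, and the input at least 1 above in 8. In the lowest SMAD2 windows these counts were 0 for the IP and 3 for the input, and in the lowest SMAD4 windows they were 0 and 2. The same counts were not made for the windows of all genes, so they do not set these 10 genes apart. The part of the input in these ratios was not tested.

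**Figure D4:**
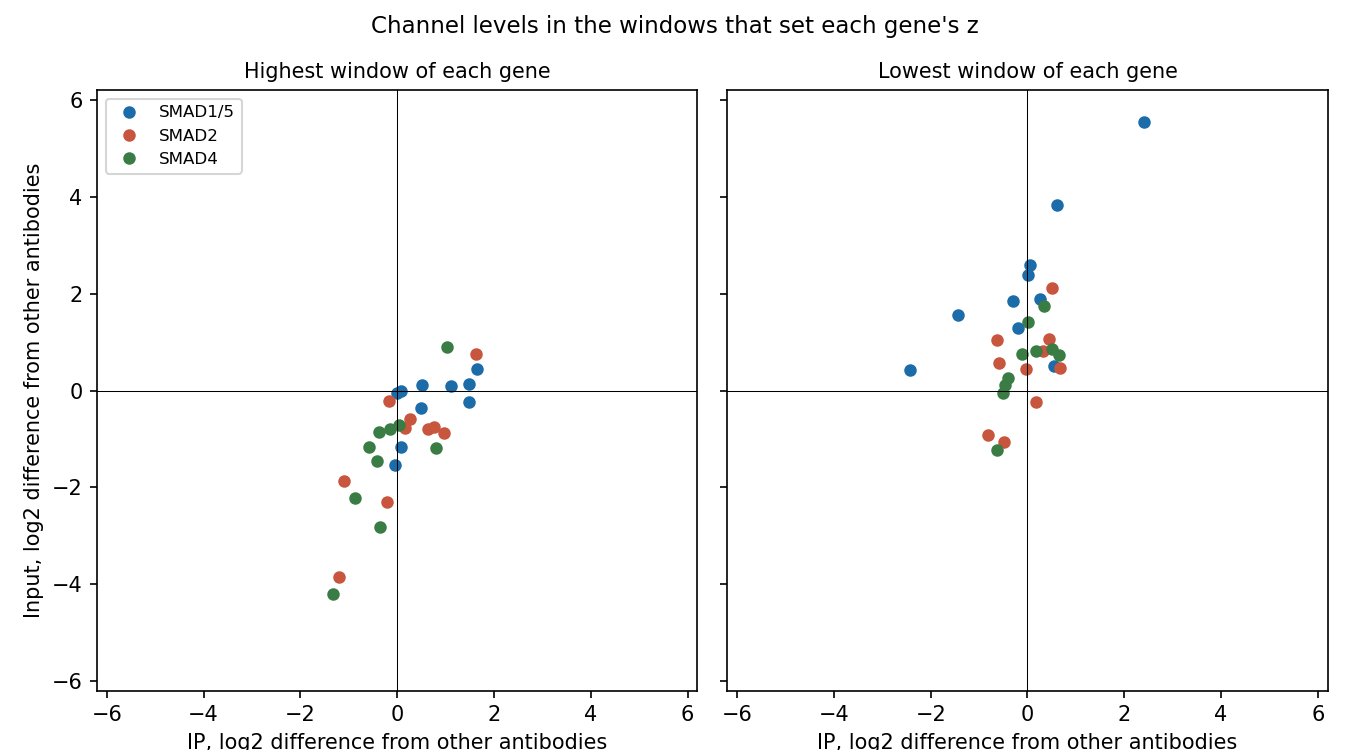
Level of the IP channel (horizontal axis) and of the input channel (vertical axis) in the highest window (left) and the lowest window (right) of each of the 10 genes, as the log2 difference from the mean of the other antibodies' arrays. In the left panel the green SMAD4 points reach down to an input difference of -4.20 for Dnmt1, and in the right panel the blue SMAD1/5 points reach up to 5.55 for Eed.

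Among related genes, 24 of 26 further Polycomb genes and 15 of 17 further genes of DNA methylation had windows, and none was enriched with any antibody. Of all genes, 0%, 0.0659% and 2.44% were enriched with SMAD1/5, SMAD2 and SMAD4, so these counts do not set the related genes apart. Phf19 and Pcgf2 were low with SMAD1/5, 2 of 24 against 2.55% of all genes. No DNA methylation gene was low with any antibody, against 2.55%, 0.33% and 0.0479% of all genes. Phf19, a PRC2 cofactor, averaged -6.43 ± 0.99 over 3 probes centred 2507 bp downstream, where the SMAD1/5 IP was 0.70 lower and the SMAD1/5 input 6.76 higher than with the other antibodies. Pcgf2, a paralogue of Bmi1, averaged -4.59 ± 3.08 over 6 probes centred at -2964 bp, with an IP 1.57 lower and an input 3.92 higher.

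None of the related genes reached the call height of the enriched windows. With SMAD2 the highest window z among them was 3.44 for Phc3, a PRC1 subunit, whose window at -959 bp averaged 1.98 ± 0.20 over 3 probes, then 3.03 for Pcgf2 and 2.42 for Phf1. With SMAD4 it was 3.43 for Pcgf5, a subunit of variant PRC1, then 3.36 for Rbbp7, a histone-binding subunit shared by PRC2. With SMAD1/5 it was 2.70 for Zfp57, which protects methylation at imprinted loci, then 2.25 for Kdm2b and 2.13 for Gadd45a. The median highest z of the further Polycomb genes was 1.42 with SMAD1/5, 1.75 with SMAD2 and 1.29 with SMAD4, and that of the further DNA methylation genes was 1.47, 1.35 and 1.61, against 1.26, 1.34 and 1.72 over all genes.

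The RefSeq promoter table (GRCm38.p6, 250 bases before to 50 after a start) held all 10 genes, with 17 promoters. They were richer in G and C than other promoters, with a median of 64.3% against 52.7% over 32851 promoters, and had a CpG ratio of observed over expected of 0.759 against 0.384. Some of the genes have more than 1 promoter here, and the shares over all promoters are not by gene. The letters GTCT, the core that SMAD proteins contact, occurred on either strand in 11 of the 17 promoters, against 88.0% of all promoters. By gene, 9 of the 10 had GTCT in at least 1 promoter. CAGAC, whose reverse complement GTCTG contains GTCT, occurred in 6 promoters, of 6 genes, against 49.6% of all promoters. The palindrome GTCTAGAC, which contains GTCT on both strands, occurred in 0, against 0.213%. GGCGCC, a GC-rich palindrome that SMAD proteins can also bind, occurred in 8 promoters, of 6 genes, against 11.9% of all promoters. Of the promoters of Dnmt3a that hold it, 2 overlap. The part of base composition in these counts was not tested.

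The promoters below show where these letters stand in the gene with the most CAGAC (Rnf2), in the genes with the lowest and the highest SMAD4 promoter mean (Eed and Dnmt3b), and in Dnmt1, whose SMAD4 window was the highest and lies outside the stretches shown. Capitals mark CAGAC or GTCTG and GGCGCC, each sequence runs 5′ to 3′ along the gene's strand, and which of the 3 Dnmt1 starts the array annotation uses was not determined.
Rnf2, chr1:151500942-151501241, minus strand: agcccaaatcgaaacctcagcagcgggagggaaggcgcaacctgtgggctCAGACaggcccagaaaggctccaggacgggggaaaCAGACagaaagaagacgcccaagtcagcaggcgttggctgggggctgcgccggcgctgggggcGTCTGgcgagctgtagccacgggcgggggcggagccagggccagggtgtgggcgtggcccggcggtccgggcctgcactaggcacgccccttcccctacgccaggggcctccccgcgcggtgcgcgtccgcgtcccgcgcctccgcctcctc
Eed, chr7:89980927-89981226, minus strand: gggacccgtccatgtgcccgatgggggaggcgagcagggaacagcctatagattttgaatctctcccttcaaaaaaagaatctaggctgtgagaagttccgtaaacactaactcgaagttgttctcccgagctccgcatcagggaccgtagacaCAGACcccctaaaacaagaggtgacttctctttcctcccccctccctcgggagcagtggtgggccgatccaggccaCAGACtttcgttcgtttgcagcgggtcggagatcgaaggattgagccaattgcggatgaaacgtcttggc
Dnmt3b, chr2:153649199-153649498, plus strand: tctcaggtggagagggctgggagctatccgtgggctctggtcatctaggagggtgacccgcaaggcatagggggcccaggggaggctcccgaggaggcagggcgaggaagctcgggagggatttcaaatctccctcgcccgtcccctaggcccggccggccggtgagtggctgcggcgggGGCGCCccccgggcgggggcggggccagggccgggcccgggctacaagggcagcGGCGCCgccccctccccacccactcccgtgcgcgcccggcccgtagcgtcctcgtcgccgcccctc
Dnmt1, chr9:20952574-20952873, minus strand: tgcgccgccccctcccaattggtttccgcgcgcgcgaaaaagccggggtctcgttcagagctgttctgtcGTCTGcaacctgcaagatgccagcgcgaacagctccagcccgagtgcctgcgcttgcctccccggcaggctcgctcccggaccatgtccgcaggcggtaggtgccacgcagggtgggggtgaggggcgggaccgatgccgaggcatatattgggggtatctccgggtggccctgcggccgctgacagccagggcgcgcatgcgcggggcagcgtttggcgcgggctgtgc
Dnmt1, chr9:20952930-20953229, minus strand: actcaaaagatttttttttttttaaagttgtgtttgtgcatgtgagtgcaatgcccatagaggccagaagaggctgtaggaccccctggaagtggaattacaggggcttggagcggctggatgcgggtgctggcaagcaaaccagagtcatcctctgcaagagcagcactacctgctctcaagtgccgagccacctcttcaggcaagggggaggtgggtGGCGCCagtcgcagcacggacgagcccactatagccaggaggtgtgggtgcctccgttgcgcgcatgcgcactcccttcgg
Dnmt1, chr9:20959839-20960138, minus strand: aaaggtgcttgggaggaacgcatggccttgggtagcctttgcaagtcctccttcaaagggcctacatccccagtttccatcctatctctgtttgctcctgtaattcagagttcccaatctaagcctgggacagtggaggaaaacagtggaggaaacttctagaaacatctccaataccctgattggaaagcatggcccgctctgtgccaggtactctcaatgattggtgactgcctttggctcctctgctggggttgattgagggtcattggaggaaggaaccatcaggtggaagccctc

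Rnf2 holds CAGAC on either strand 3 times, Eed 2 times and no GGCGCC, and Dnmt3b GGCGCC 2 times and no CAGAC. The Dnmt1 promoters hold 1 CAGAC match, 1 GGCGCC match and no match.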

How the data were processed

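Immunoprecipitated and input DNA of R1 cells were compared on 6 promoter arrays, 2 for each of 3 antibodies, and samples were grouped by their titles. Each spot has a deposited intensity in either channel, which per the file headers was background-subtracted and dye-normalised by Agilent Feature Extraction, version 9.1.3.1 for SMAD1/5 and SMAD2 and 9.5.3.1 for SMAD4. They also hold other columns, flags of 0 or 1 that the same software set, per the file headers. IP was Cy5 and input Cy3 throughout, per the labels, so dye and enrichment cannot be told apart. The authors' deposited log2 values correlated with the scanner ratios at r from 0.74 to 0.95 over probes, which gives their direction as IP over input. The SMAD1/5 columns had medians of 0.08 and -0.01, the SMAD2 columns 0.05 and 0.04, and the SMAD4 columns -0.0047 and -0.0023. Their scale and centring are unknown, and they served as an alternative.

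Log2 ratios of processed intensity were centred on each array's median, without outlier spots and without loess. Saturated spots were kept. Windows and calls were computed on all probes, as the results state. Annotated distances above 10000 bp were dropped after the annotation was seen. Gene names were updated through the RefSeq accession for 16046 of 17058 names, and 266 kept the name in the file. The members, the related lists, the motifs and the naming rule (all 10 genes, genes sharing their probes, related genes with a call and the 3 highest per antibody) were chosen with earlier results of these data known. A gene that the naming rule selects is not reported here. With 1 sample per antibody no p-value was computed, and the number of arrays limits the precision. The window rule was tested on simulated data. Probe sequences were not used here. Python 3.11.15, numpy 2.4.6, pandas 2.3.3, R 4.3.3 and limma 3.58.1 were used. The 10 alternatives tried were normexp correction (offset 50), the authors' values, bright probes, windows of 250 and 1000 bp, loess, the mean input, removal of the own-input trend, outlier spots kept, and windows without their most extreme probe.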

Additional observations from a re-analysis of the deposited data

How the results depend on the processing

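No paired analysis was possible because each antibody has a single sample on each array. None of the 10 genes was enriched under any of the 10 alternatives named above. Of all genes, at most 845 of 16689 were enriched with SMAD1/5 (normexp) and 18 of 16780 with SMAD2 (windows of 1000 bp). With SMAD4 it was at most 407 of 16689 (outlier spots kept). At these shares a count of 0 in 10 genes does not set them apart. With SMAD1/5, normexp correction called Bmi1 low (1 gene, with 2745 of all 16689 genes), moved the median highest z of the 10 genes to 1.92 (all genes 1.81) and left 26 probes at 2-fold, against 21 with the authors' deposited values, 41 with loess and 47 with the own-input trend removed (79 as reported). With SMAD2, 2 genes were low with the authors' deposited values (Ezh2 and Eed, with 113 of all 16686 genes), 1 with loess (Eed, with 94), 1 with the mean input (Bmi1, with 510), and 1 with the low side scaled by windows above the median (Eed, with 144), an alternative chosen after seeing the data. SMAD2 probes at 2-fold numbered 19 with the authors' values and 15 with the own-input trend removed (31 as reported), and SMAD4 probes 17 with normexp and 21 with the trend removed (33 as reported). Shares of all probes at 2-fold under these alternatives are not given here, and the cause of the changes was not tested. Of 300 highest z values of single genes, 285 moved by less than the spread over probes and 15 by more. Input over local background had a median of 2.35 and 2.73 with SMAD1/5, and of 5.05 to 7.45 on the arrays of the other antibodies.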
